A study of Homo sapiens with 16 samples.

Results

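The transcripts described here are 10 genes of extracellular matrix breakdown and its control, namely the matrix metalloproteinases MMP1, MMP2, MMP3, MMP9 and MMP14, the inhibitors TIMP1, TIMP2, TIMP3 and RECK, and BSG. They were listed by name, by a rule that uses no measured value, but with earlier results of these data known. All 10 of 10 were present in both deposited expression tables. These hold 22892 genes for 6 HiSeq libraries and 25606 genes for 4 NextSeq libraries. The cells were clones of HT1080, an established human fibrosarcoma line, that carry the Tet repressor and a doxycycline (DOX)-inducible XIST cDNA inserted at 1p, 8p or 12q. XIST is the long RNA that silences the X chromosome it is expressed from, and the study asked what it does at autosomal sites. The HiSeq libraries were 8p without DOX (No DOX, 1 library), 8p with DOX (2 libraries, DOX 1 and DOX 2), 1p with DOX, 1p with an empty vector in place of XIST and with DOX, and 12q with DOX, and the NextSeq libraries were 1p and 12q, each once as No DOX and once with DOX. DOX was given for 5 days. Each clone was grown from a single cell, and the 1p and 8p clones came from another Tet repressor subclone than the 12q clones. Insertion site, subclone and clone therefore cannot be told apart where 12q is compared with 1p or 8p, nor can site and clone between 8p and 1p, while the XIST and vector libraries of 1p share the site and differ in transgene and clone. By the study's methods the DOX libraries of 8p came from separate 8p clones, and the labels do not say to which of them the No DOX library belongs.

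Matrix metalloproteinases are zinc-dependent enzymes that cut collagens and other proteins outside the cell. Most are secreted as inactive proenzymes, while MMP14 sits in the plasma membrane and, together with TIMP2, activates proMMP2. The TIMPs bind the active enzymes and block them, RECK is a membrane-anchored inhibitor, and BSG (also called EMMPRIN) is a cell surface glycoprotein known as an inducer of MMP production. HT1080 cells are widely used as an invasive line that makes MMP2, MMP9 and MMP14. Levels below are FPKM, fragment counts scaled to transcript length and library size, which are per length and can be set side by side between genes of 1 library. Differences are on the log2(FPKM + 1) scale unless given as a ratio of FPKM, and on that scale low genes show less than their ratio. The depth of the libraries is unknown, and each table was compared only within itself.

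Checks of the libraries came first. XIST was at 3.38 FPKM in 8p No DOX against 99.0 and 89.7 FPKM in 8p DOX 1 and DOX 2, at 0.0705 FPKM in the vector library, and in NextSeq at 4.17 and 22.0 FPKM in 1p and at 3.75 and 67.6 FPKM in 12q, without and with DOX. Of the 6 mesenchymal markers, VIM was the highest, at 1644 to 2978 FPKM in all 10 libraries, and THY1 was below 1 FPKM in all 10. Of the 4 leukocyte markers, PTPRC, CD14 and ITGAM summed to at most 0.107 FPKM, and CD68 was at 73.7 to 125 FPKM throughout. Of the 4 epithelial markers, EPCAM, CDH1 and KRT19 were each below 0.1 FPKM in 9 libraries and at 2.38, 1.38 and 0.964 FPKM in 12q DOX of NextSeq, and CLDN4 was at 0.315 to 2.96 FPKM. The endothelial marker CDH5 was at 5.44 to 7.06 FPKM in the 3 12q libraries and below 1 FPKM elsewhere. None of the 10 genes lies on chromosome 1, 8 or 12, where the transgenes sit.

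MMP14, the membrane-bound activator of MMP2 (chr14:22375632-22386643, build hg18), was the most abundant of the 10 genes in 8 of the 10 libraries and stood behind BSG in the other two. It was at 121 FPKM in 8p No DOX, 254 and 218 FPKM in 8p DOX 1 and DOX 2, 285 FPKM in 1p, 114 FPKM in the vector library and 151 FPKM in 12q of HiSeq. In NextSeq it was at 238 and 219 FPKM in 1p and at 222 and 204 FPKM in 12q, without and with DOX. The HiSeq levels thus fell into a lower range of 114 to 151 FPKM and a higher one of 218 to 285 FPKM, whereas the NextSeq levels spanned no more than 1.16-fold.

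MMP1, the interstitial collagenase (chr11:102165850-102174176), had the widest range of the 10 genes. It was at 56.7 FPKM in 8p No DOX, 68.6 and 62.8 FPKM in 8p DOX 1 and DOX 2, 107 FPKM in 1p, 0.246 FPKM in the vector library and 2.31 FPKM in 12q of HiSeq. In NextSeq it was at 52.1 and 47.6 FPKM in 1p and at 2.67 and 2.39 FPKM in 12q. Every 8p and 1p XIST library was above 47 FPKM, and the vector library and every 12q library were below 3 FPKM.

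MMP9, the gelatinase B gene (chr20:44070953-44078607), had its high and low libraries the other way round. It was at 0.383, 0.837 and 0.802 FPKM in 8p No DOX, DOX 1 and DOX 2, 0.466 FPKM in 1p, 6.05 FPKM in the vector library and 4.90 FPKM in 12q of HiSeq. In NextSeq it was at 0.393 and 0.665 FPKM in 1p and at 10.3 and 6.94 FPKM in 12q. The 4 libraries with MMP1 below 3 FPKM were the 4 with MMP9 above 4 FPKM, and in the other 6 libraries MMP9 stayed below 1 FPKM.

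**Figure D1:**
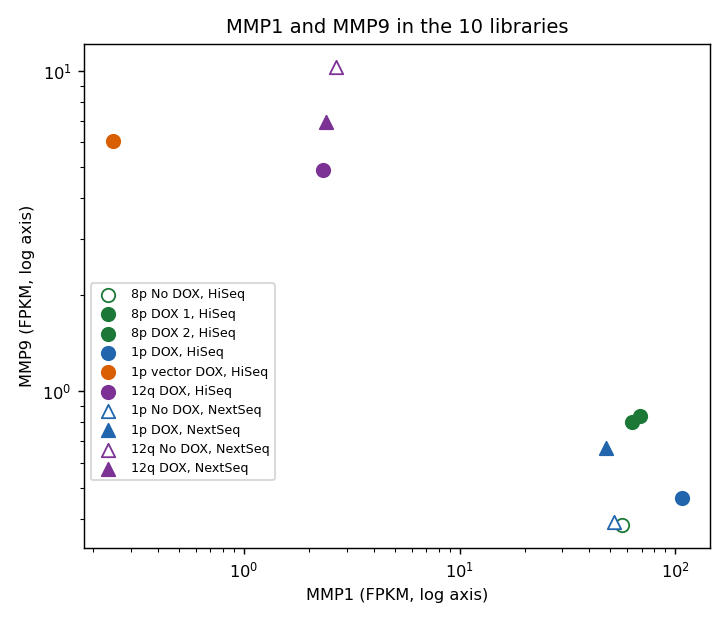
MMP9 level (y axis, FPKM, log axis) against MMP1 level (x axis, FPKM, log axis) in each of the 10 libraries. Circles are HiSeq and triangles NextSeq libraries, open symbols are No DOX, and colours are clones. The 3 12q libraries and the 1p vector library lie at upper left (MMP9 at 4.90 to 10.3 FPKM) and the 8p and 1p XIST libraries at lower right (MMP1 at 47.6 to 107 FPKM).

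MMP2, gelatinase A (chr16:54070581-54098087), was at 8.12 FPKM in 8p No DOX, 16.6 and 15.6 FPKM in 8p DOX 1 and DOX 2, and 7.29, 3.44 and 6.46 FPKM in the 1p, vector and 12q libraries of HiSeq. In NextSeq it was at 4.87 and 6.43 FPKM in 1p and at 9.87 and 8.21 FPKM in 12q. MMP3, stromelysin-1 (chr11:102211737-102219552, beside MMP1), was at 2.61, 2.45 and 1.82 FPKM in the 8p libraries, 2.47, 0.174 and 3.88 FPKM in 1p, vector and 12q, and in NextSeq at 1.67 and 1.59 FPKM in 1p and 4.89 and 4.60 FPKM in 12q. The vector library was the lowest HiSeq library for both, and the 2 12q libraries of NextSeq were above the 2 1p libraries for both.

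TIMP1 and TIMP2 moved over narrower ranges than the MMPs in HiSeq. TIMP2 (chr17:74360653-74433067) was at 64.0, 67.0 and 62.3 FPKM in the 8p libraries, 64.7, 43.9 and 56.6 FPKM in 1p, vector and 12q, and 90.1, 95.4, 89.1 and 89.0 FPKM in the NextSeq libraries (1p No DOX, 1p DOX, 12q No DOX, 12q DOX). TIMP1 (chrX:47326633-47331134) was at 37.2, 37.9 and 38.8 FPKM in 8p, 47.5, 32.7 and 41.7 FPKM in 1p, vector and 12q, and 78.7, 68.6, 55.7 and 49.5 FPKM in NextSeq in the same order. The highest HiSeq library was 1.53-fold above the lowest for TIMP2 and 1.45-fold for TIMP1, against 2.50-fold for MMP14 and 4.82-fold for MMP2. In NextSeq this span was 1.07-fold for TIMP2 and 1.59-fold for TIMP1, against 1.16-fold for MMP14 and 2.03-fold for MMP2, so TIMP1 there varied more than MMP14.

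TIMP3 (chr22:31526801-31589028), the inhibitor that stays bound to the matrix, was at 0.306, 0.302 and 0.275 FPKM in 8p, 0.744, 0.00558 and 1.13 FPKM in 1p, vector and 12q, and 1.23, 2.04, 1.82 and 1.80 FPKM in NextSeq. RECK (chr9:36026909-36114452) was at 1.47, 1.44 and 1.46 FPKM in 8p, 0.900, 1.20 and 2.14 FPKM in 1p, vector and 12q, and 1.39, 1.47, 2.76 and 2.62 FPKM in NextSeq. Both membrane- and matrix-bound inhibitors were thus far below TIMP1 and TIMP2 in every library. BSG (chr19:522324-534493) was at 181, 197 and 200 FPKM in 8p, 150, 125 and 131 FPKM in 1p, vector and 12q, and 149, 139, 154 and 131 FPKM in NextSeq. For BSG, as for MMP2, the 3 8p libraries were above the 3 other HiSeq libraries. The share of all genes that separate this way is not given, and the median log2 difference of all genes was 0.22 toward 8p. TIMP1 and TIMP3 lie inside the genes SYN1 and SYN3, which are read from the opposite strand, so their values depend on the strand setting of the counting, which is not given in the sources used here.

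**Figure D2:**
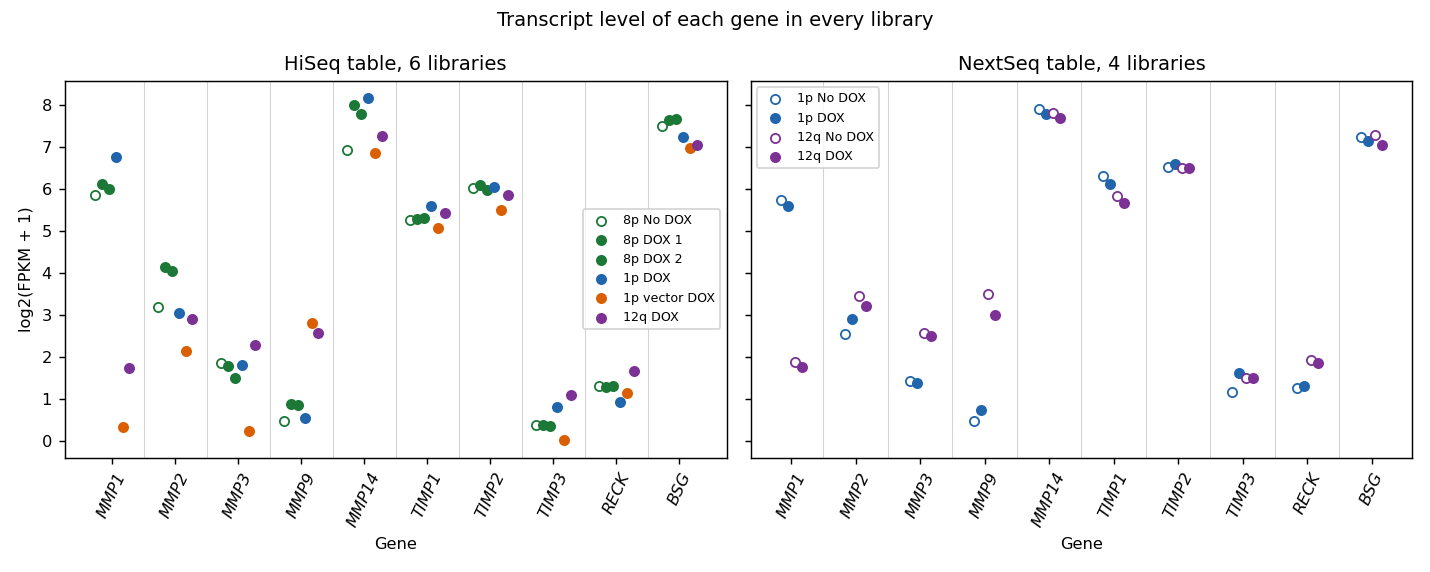
Level of each gene (y axis, log2(FPKM + 1)) in every library, HiSeq at left and NextSeq at right. Each point is 1 library, open points are No DOX and colours are clones. MMP1 and MMP9 spread widest, with the vector and 12q libraries low for MMP1 and high for MMP9, while TIMP1 and TIMP2 span at most 1.53-fold in HiSeq.

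Promoter sequence from the RefSeq table (build GRCh38.p14) was matched for 5 of the 10 genes, MMP14, TIMP1, TIMP3, RECK and BSG, and there was no entry for MMP1, MMP2, MMP3, MMP9 and TIMP2. The 250 bases before the start of MMP14 (chr14:22836335-22836584, + strand) and of TIMP1 (chrX:47582186-47582435, + strand) are shown as a protease gene that differed with DOX in 8p and an inhibitor gene that did not pass the same test. Capitals mark the GC box GGGCGG or its reverse complement CCGCCC, the letters known for binding Sp1.
MMP14: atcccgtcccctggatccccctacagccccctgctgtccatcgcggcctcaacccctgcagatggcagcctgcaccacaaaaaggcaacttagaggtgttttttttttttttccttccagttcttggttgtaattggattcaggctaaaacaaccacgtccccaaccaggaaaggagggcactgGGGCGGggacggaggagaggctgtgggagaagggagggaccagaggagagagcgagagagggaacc
TIMP1: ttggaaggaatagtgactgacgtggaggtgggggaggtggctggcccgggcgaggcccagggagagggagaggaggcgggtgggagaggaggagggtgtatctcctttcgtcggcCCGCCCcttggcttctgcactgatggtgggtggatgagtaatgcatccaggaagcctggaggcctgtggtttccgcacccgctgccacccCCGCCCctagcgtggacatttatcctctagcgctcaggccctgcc
The GC box was found once in MMP14, 66 bases before the start, and at 2 places in TIMP1, 135 and 45 bases before it. It was also in TIMP3 and RECK and not in BSG, so 4 of 5 windows held it, against 42.6% of all 35116 promoter windows of this length. The AP-1 letters TGAGTCA, searched on both strands and not overlapping the GC box, were in 0 of 5 windows and in 4.20% of all windows. These are matches of exact letters only. Variant spellings of either site were not searched, so a window without a match may still hold such a site.

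Clone differences balanced for DOX were tested in NextSeq, where 12q and 1p each had a No DOX and a DOX library. MMP9, MMP3, RECK and MMP2 were higher in 12q, and MMP1 and TIMP1 were lower, so that 6 of 10 genes passed at an adjusted p of 0.05 (limma, Benjamini-Hochberg over 11397 genes) where 32.8% of all genes tested did. MMP14, TIMP2, TIMP3 and BSG did not pass. The median log2 difference was 0.044 over the 10 genes and 0.016 over all genes. The fit has 1 residual degree of freedom, the interaction of clone with DOX, and the libraries are taken as replicates of a clone. A p-value thus measures only the spread between these libraries, meaning how unequal the DOX change was in the clones. That spread may be biological or technical.

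MMP1 was 19.5-fold lower in 12q than in 1p among the No DOX libraries and 19.9-fold lower among the DOX libraries. The fitted log2 difference was -3.85 (SE 0.0713, limma adjusted p = 0.000187). MMP9 was 26.2-fold higher in 12q without DOX and 10.4-fold higher with DOX, with a fitted log2 difference of 2.64 (SE 0.210, limma adjusted p = 0.00426). The collagenase and the gelatinase B transcripts therefore differed between the clones in opposite directions and in both DOX states.

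MMP3 was 2.92-fold and 2.89-fold higher in 12q (log2 difference 1.13, SE 0.109, limma adjusted p = 0.00584). RECK was 1.98-fold and 1.78-fold higher (0.60, SE 0.126, limma adjusted p = 0.0283), and MMP2 was 2.03-fold and 1.28-fold higher (0.60, SE 0.158, limma adjusted p = 0.0473). TIMP1 was 1.41-fold and 1.39-fold lower in 12q (-0.48, SE 0.0584, limma adjusted p = 0.0092). With no filter on low values MMP2 and RECK no longer passed, with limma adjusted p of 0.129 and 0.0688.

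For the genes that did not pass, the 95% interval of the log2 difference was -0.24 to 0.048 for MMP14, -0.22 to 0.10 for TIMP2, -0.19 to 0.15 for BSG and -0.34 to 0.56 for TIMP3. The epithelial markers summed to 2.96 and 6.78 FPKM in the 12q libraries against 1.06 and 1.07 FPKM in 1p. In the No DOX libraries, where EPCAM and KRT19 were listed at 0 in both clones, the log2 differences of MMP1 and MMP9 were -3.85 and 3.02. The endothelial marker CDH5 was also higher in 12q (2.81, SE 0.142, limma adjusted p = 0.00213), while the other 3 endothelial markers summed to at most 1.05 FPKM in NextSeq, and the part of either marker list in the result was not tested.

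The HiSeq table holds 1 library each of 1p DOX and 12q DOX, and the difference between 12q and 1p was read there with no test. These libraries are separate from those of NextSeq. The study had several independent 12q clones, and the labels do not say whether both tables hold the same one. Past 1.5-fold on the log2(FPKM + 1) scale were 4 of 9 genes, against 16.7% of all genes. MMP1 was 46.4-fold lower and MMP14 1.89-fold lower in 12q, and MMP9 was 10.5-fold higher and RECK 2.37-fold higher. Of the 6 genes that passed in NextSeq, 5 had the same direction in HiSeq, and MMP2 had the opposite one, with log2 differences of 0.60 in NextSeq and -0.15 in HiSeq. MMP14 differed by 1.89-fold in HiSeq and by 1.07-fold in NextSeq. The median over all genes was 0.13 in this HiSeq pair, so the relative difference of each gene is lower by that amount.

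**Figure D3:**
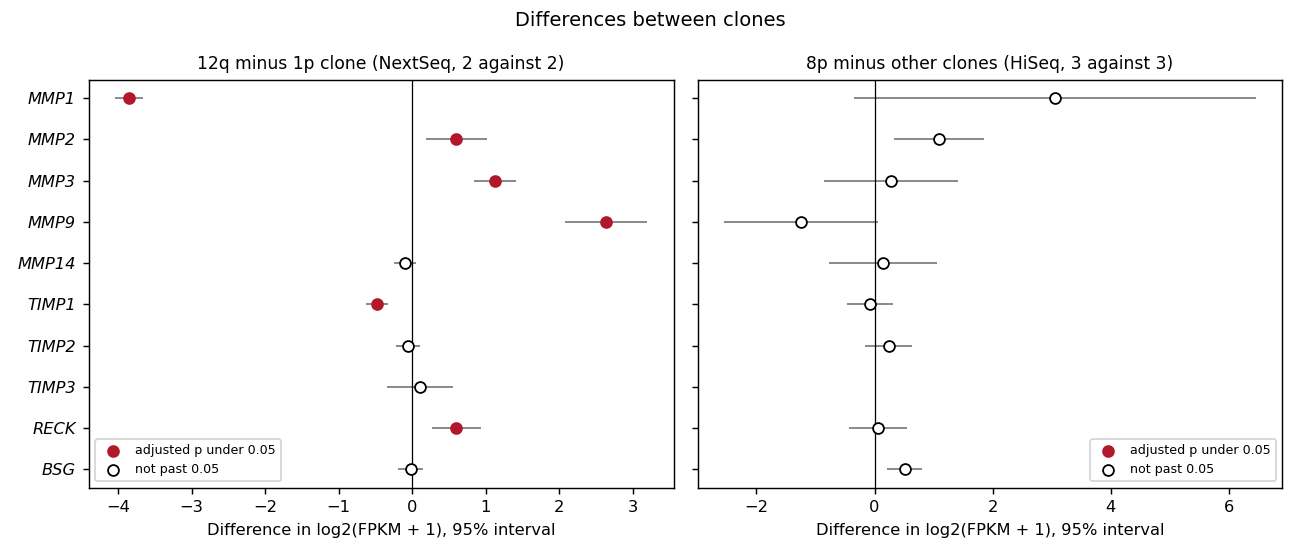
Difference in log2(FPKM + 1) between clones for each gene (x axis), with 95% intervals from limma, for 12q minus 1p in NextSeq (left) and for 8p minus the 3 other libraries in HiSeq (right). Filled red points passed an adjusted p of 0.05. At left 6 genes passed, from MMP1 at -3.85 to MMP9 at 2.64, and at right 0 of 9 passed and TIMP3 was below the filter.

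The 8p libraries were next set against the 3 other HiSeq libraries. The libraries on each side were taken as replicates, although the 3 others are of unlike clones. DOX was not balanced, since the 8p side held the only No DOX library. Without that library the log2 difference was 0.46 for MMP14, against 0.15 with it, and 1.39 for MMP2, against 1.09. MMP1, MMP2 and BSG were higher on average in 8p and MMP9 lower, and 0 of 9 genes passed (limma, adjusted p of 0.05), against 5.17% of 11357 genes. At an unadjusted p of 0.05 the count was 2 of 9, MMP2 and BSG, against 3289 of 11357 genes. The log2 difference of MMP1 was 3.05 (SE 1.45, limma adjusted p = 0.21) and that of MMP9 was -1.25 (SE 0.555, limma adjusted p = 0.187). MMP2 differed by 1.09 (SE 0.326, limma adjusted p = 0.0892) and BSG by 0.51 (SE 0.128, limma adjusted p = 0.0656). After scaling to equal medians the limma adjusted p was 0.189 for MMP2 and 0.251 for BSG. The groups overlapped for MMP1 and MMP9.

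For MMP1 and MMP9 the 1p XIST library lay above or among the 8p libraries, away from the vector and 12q libraries. Without it, MMP1 differed by 4.97 (limma adjusted p = 0.0101) and MMP9 by -1.96 (limma adjusted p = 0.0166). These were the 2 of the 9 genes that passed in that fit, where 231 genes passed in all. Without the vector library MMP1 differed by 1.74 (limma adjusted p = 0.439) and MMP9 by -0.83 (limma adjusted p = 0.389). Over the 9 genes the median difference was 0.24 and over all genes 0.22, so relative to it MMP1 was at 2.84, MMP2 at 0.88, BSG at 0.29, MMP9 at -1.46, and MMP14 at -0.068. Among all genes the calls were 466 higher and 121 lower in 8p, and 192 higher and 255 lower once the libraries were scaled to equal medians.

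The 1p XIST and 1p vector libraries, both with DOX, differ in the transgene and in being separate clones. Past 1.5-fold were 5 of 9 genes, against 21.3% of all genes. MMP1 was 436-fold higher in the XIST clone, MMP3 14.1-fold, MMP14 2.50-fold and MMP2 2.12-fold, while MMP9 was 13.0-fold lower. TIMP2 and TIMP1 were 1.47-fold and 1.45-fold higher and did not pass the fold. There was 1 library on each side, so the differences have no replicate check, and the median over all genes was 0.092.

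With DOX in 8p, MMP14 and MMP2 rose and 6 of 8 genes did not pass. The count of 2 of 8 (25.0%) stood against 35.2% of all 11301 genes tested, and the median log2 difference was 0.091 over the 8 genes and -0.060 over all. MMP14 was at 121 FPKM without DOX and at 236 ± 25.4 FPKM with DOX (SD, n = 2), a ratio of 1.94 and a log2 difference of 0.95 (SE 0.118, limma adjusted p = 0.00758). MMP2, whose proenzyme MMP14 activates, was at 8.12 FPKM without and at 16.1 ± 0.664 FPKM with DOX (SD, n = 2), a ratio of 1.98 and a log2 difference of 0.91 (SE 0.0814, limma adjusted p = 0.00524).

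Both calls rest on 1 No DOX library, taken to vary like the DOX pair, and DOX cannot be told apart from a clone difference to the extent that the 3 libraries are not of 1 clone. With no filter on low values 21 genes passed in all and neither MMP2 nor MMP14 did (limma adjusted p = 0.0923 and 0.0934), and with the 3 other HiSeq libraries added to the baseline 2 genes passed in all and neither did (limma adjusted p = 0.357 and 0.503). Over all genes, 1456 rose and 2526 fell, or 2168 and 2051 after scaling to equal medians.

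MMP1 differed by 0.21 (SE 0.0923, limma adjusted p = 0.134), BSG by 0.14, MMP3 by -0.21, TIMP1 by 0.045, TIMP2 by 0.015 and RECK by -0.014, with none of these past the threshold. The 95% intervals were -0.16 to 0.25 for TIMP1 and -0.21 to 0.24 for TIMP2. MMP9 and TIMP3 were below the filter of 1 FPKM on average, and MMP9 was 2.19-fold and 2.10-fold higher in DOX 1 and DOX 2 than without DOX.

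With DOX in the NextSeq clones, 0 of 10 genes passed in the fit common to 1p and 12q (limma), where 0.00877% of all genes, or 1 of 11397, did. At an unadjusted p of 0.05 TIMP1 alone of the 10 passed, with a log2 difference of -0.18 (SE 0.0584, limma adjusted p = 0.702), and 746 genes did in all. The median log2 difference was -0.090 over the 10 genes and -0.011 over all. MMP14 was at -0.12 (SE 0.0548, limma adjusted p = 0.702) and MMP2 at 0.051 (SE 0.158, limma adjusted p = 0.949), with 95% intervals of -0.27 to 0.023 and -0.37 to 0.47. XIST itself did not pass here (limma adjusted p = 0.702), with log2 differences that were unequal in the clones.

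Read within each clone with no test, 0 of 9 genes in 1p and 0 of 10 in 12q were past 1.5-fold, against 1.10% and 3.08% of all genes. Among them the largest log2(FPKM + 1) differences were 0.45 for TIMP3 in 1p (2.04 against 1.23 FPKM) and -0.51 for MMP9 in 12q (6.94 against 10.3 FPKM). MMP9 in 1p averaged below 1 FPKM and was at 0.665 against 0.393 FPKM, a ratio of 1.69. EPCAM, CDH1 and KRT19 were also higher in 12q DOX than in 12q No DOX, and their part in these values was not tested.

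**Figure D4:**
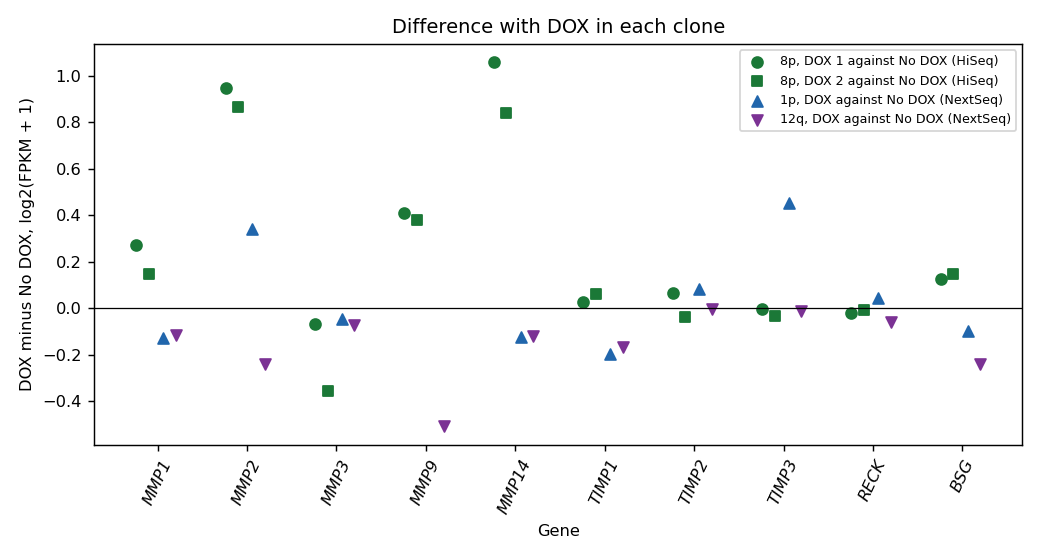
Difference between DOX and No DOX in log2(FPKM + 1) (y axis) for each gene, per 8p DOX library (green) and for 1p (blue) and 12q (purple). MMP14 (1.06 and 0.84) and MMP2 (0.95 and 0.87) stand highest in 8p, and no 1p or 12q value is past 1.5-fold. MMP9 of 1p averaged below 1 FPKM and has no point, and MMP9 and TIMP3 of 8p, also below it, were not tested.

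The summed FPKM of the 5 MMPs ran from 124 to 403 in HiSeq and from 227 to 297 in NextSeq, and that of the 3 TIMPs from 76.6 to 113 and from 140 to 170. The ratio of MMP to TIMP transcripts was 1.86 in 8p No DOX, 3.25 and 2.95 in 8p DOX 1 and DOX 2, 3.57 in 1p, 1.62 in the vector library and 1.70 in 12q. In NextSeq it was 1.75 and 1.66 in 1p and 1.71 and 1.62 in 12q. MMP14 made up 64.1% to 92.0% of the MMP sum in all 10 libraries, and MMP1 made up 17.3% to 30.0% in the 8p and 1p XIST libraries and at most 1.37% in the vector and 12q libraries. Sums of transcripts say nothing of the amount of active enzyme.

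**Figure D5:**
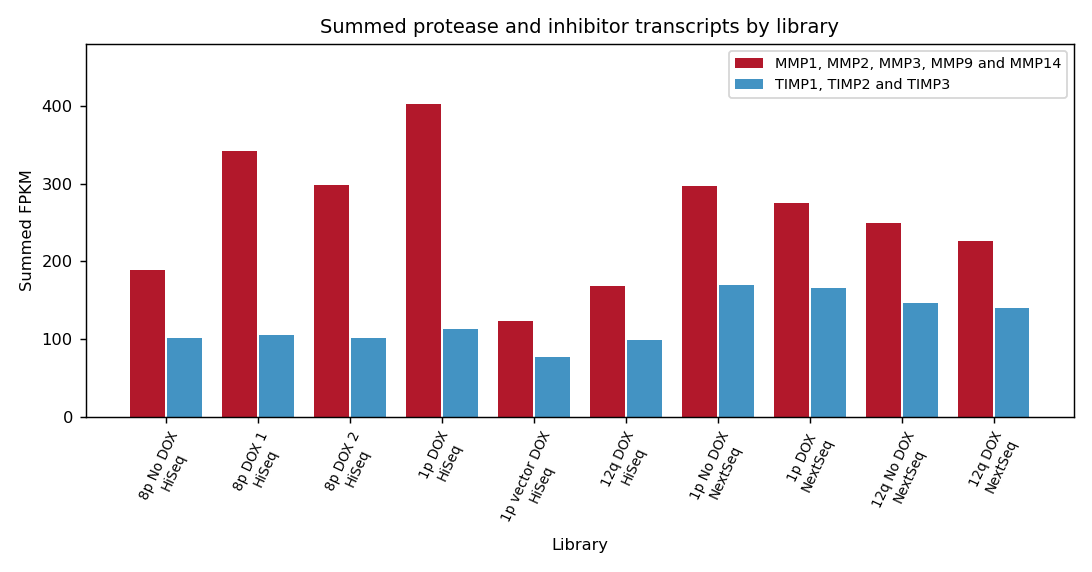
Summed FPKM (y axis) of MMP1, MMP2, MMP3, MMP9 and MMP14 (red) and of TIMP1, TIMP2 and TIMP3 (blue) in each library (x axis). The red bars of 8p DOX and 1p DOX in HiSeq reach 299 to 403, those of the 3 other HiSeq libraries 124 to 189, and the blue bars of HiSeq stay between 76.6 and 113.

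Other members of the family were mostly low. Of 18 further MMP genes in the tables, 15 were below 1 FPKM in every HiSeq library and 13 in every NextSeq library. MMP15, a membrane-bound MMP and the highest of them in HiSeq, was at 9.13, 10.5 and 9.24 FPKM in 8p and at 1.84, 1.74 and 0.877 FPKM in 1p, vector and 12q (log2 difference 2.12, SE 0.189, limma adjusted p = 0.00544), 1 of 3 tested that passed, where 5.17% of all genes did. In NextSeq MMP24 was the highest, at 1.81 to 2.06 FPKM. Between 12q and 1p 0 of 5 tested passed (limma), against 32.8% of all genes. There 1 of the 5 passed at an unadjusted p of 0.05, against 5355 of 11397 genes. With DOX in 8p 0 of 3 passed (limma), against 35.2% of all genes, and 1 passed at an unadjusted p of 0.05, against 5473 of 11301 genes. Of the 18, 4 lie on a transgene chromosome, the nearest being MMP17, 22.2 Mb from the 12q insertion.

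ADAM and ADAMTS genes, relatives that shed surface proteins and cut proteoglycans, had 10 of 40 tested in both clone comparisons. ADAM15 was the highest, at 50.5 to 59.6 FPKM in HiSeq. In 8p, 2 of 10 passed as higher, ADAM9 (1.11, SE 0.129, limma adjusted p = 0.00956) and ADAMTS6, against 5.17% of all genes. ADAM9 lies on chromosome 8, 32.45 Mb from the 8p insertion, and 11 of the 40 genes lie on a transgene chromosome. Between 12q and 1p, 1 passed as higher and 1 as lower, against 32.8% of all genes. With DOX in 8p, 2 of 12 rose, against 35.2% of all genes called in either direction.

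Among the 9 further inhibitors and binding proteins, all 3 that were tested passed between 12q and 1p, where 32.8% of all genes did. SPOCK1, a testican proteoglycan, was at 26.8 and 30.8 FPKM in 1p and at 0.991 and 1.01 FPKM in 12q of NextSeq (-3.89, SE 0.0921, limma adjusted p = 0.000296). THBS1, a matrix glycoprotein that binds MMP2 and MMP9, was lower in 12q (-1.54, SE 0.109, limma adjusted p = 0.00379), and its relative THBS2 was higher (2.61, SE 0.136, limma adjusted p = 0.00224). THBS1 was also higher in 8p than in the other HiSeq clones (3.75, SE 0.527, limma adjusted p = 0.0168), at 133, 107 and 97.3 FPKM against 13.2, 2.27 and 11.7 FPKM. Of these 3, 1 rose and 1 fell with DOX in 8p, where 35.2% of all genes were called.

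The activator list holds genes that take part in switching on MMP proenzymes, directly or through plasmin, such as proteases and the urokinase receptor PLAUR. PLAU, urokinase, was its most abundant gene, at 96.4 to 238 FPKM in HiSeq and 289 to 361 FPKM in NextSeq. Between 12q and 1p, 2 of 6 tested were lower, near the 32.8% of all genes called, and PLAT, tissue plasminogen activator, was at 51.0 and 48.6 FPKM in 1p against 9.31 and 8.09 FPKM in 12q (-2.39, SE 0.0704, limma adjusted p = 0.000579). With DOX in 8p, 4 of 6 rose, PLAT, PLAU, PLAUR and FURIN, by 0.43 to 0.57 on the log2 scale, and these 4 were named after their values were seen. PLAT lies on chromosome 8 (chr8:42151392-42184351), which carries the transgene in these cells. Of all genes 35.2% passed in that comparison. The median log2 difference of the 6 was 0.47, against -0.060 over all genes. In 8p against the other HiSeq clones 0 of 7 passed (limma), against 5.17% of all genes. The count was also 0 at an unadjusted p of 0.05, against 3289 of 11357 genes.

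Of the 22 transcription factors of the AP-1, ETS and related families that are known to act on MMP promoters, 21 were tested in both clone comparisons. FOSL1, an AP-1 subunit, was the highest in both tables, at 121 to 189 FPKM. Between 12q and 1p, 7 were higher and 5 lower, against 32.8% of all genes called, with ETS2 at 59.3 and 60.0 FPKM in 1p and at 16.4 and 14.1 FPKM in 12q (-1.91, SE 0.0813, limma adjusted p = 0.00143). ETV4 (1.12, SE 0.0750, limma adjusted p = 0.00342) and ATF3 (1.30, SE 0.112, limma adjusted p = 0.00483) were higher in 12q. In 8p against the other clones 1 of 21 passed, as lower, and with DOX in 8p 4 of 20 rose and 4 fell, shares near the 5.17% and 35.2% of all genes.

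Of the 6 mesenchymal markers, all 5 tested passed between 12q and 1p, where 32.8% of all genes did, 4 of them lower, with FN1, the fibronectin gene, at -1.36 (SE 0.179, limma adjusted p = 0.0106) and S100A4 at -1.11 (SE 0.121, limma adjusted p = 0.0074). SPARC, a collagen-binding protein, was the 1 that was higher. It was also the 1 of 5 that passed in 8p (1.40, SE 0.245, limma adjusted p = 0.0308), where 5.17% of all genes did. Of the 5, 3 rose with DOX in 8p, where 35.2% of all genes were called. CLDN4, the 1 epithelial marker tested, was higher in 12q than in 1p (0.77, SE 0.157, limma adjusted p = 0.027). With DOX in NextSeq no tested gene of these further lists and markers passed (limma), and at an unadjusted p of 0.05 only 2 of the 21 transcription factors did.

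Over the 6 HiSeq libraries, the genes whose library-centred log2 profile lay closest to that of MMP1, among 7661 genes that averaged 5 FPKM or more, were LYPD1, SNORD2, PLAT, LOC100505817 and THBS1. Their root mean square differences from MMP1 were 1.29, 1.40, 1.51, 1.59 and 1.59, where a flat profile would give 2.48. LYPD1 was at 35.6, 22.9 and 23.8 FPKM in 8p and 9.08, 1.36 and 0.756 FPKM in 1p, vector and 12q. In NextSeq, which was not used for the choice, LYPD1 was at 18.2 and 18.7 FPKM in 1p and 1.87 and 1.86 FPKM in 12q, and SNORD2 was listed at 0 in all 4 libraries.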

How the data were processed

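Poly(A)-selected RNA of HT1080 clones was sequenced with strand-specific TruSeq libraries on HiSeq and NextSeq instruments. The authors aligned reads with TopHat and Bowtie to hg18 and deposited FPKM values estimated with Cufflinks (submitters' processing notes). Versions, annotation and the strand setting of the estimation are not given in the sources used here. Counts were not used here, so depth is unknown and no counting interval is given.

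Lines of repeated gene names (735 in HiSeq, 878 in NextSeq) and names turned into dates (26 in each) were removed, as were 2 NextSeq lines with missing values. FPKM were tested as log2(FPKM + 1) with limma 3.58.1 (lmFit, eBayes with trend, R 4.3.3) over genes averaging at least 1 FPKM in the libraries fitted, two-sided, with Benjamini-Hochberg adjustment over all genes tested. The 4 fits were 8p against the other HiSeq clones (3 against 3), DOX in 8p (2 against 1), and clone and DOX together in NextSeq. Single libraries were compared by a 1.5-fold rule with no p. The fits were tested on simulated data with 200 of the tested genes changed by 1.5 (log2). With spreads drawn from the fitted prior they recovered 81.5% of 8p clone changes with 5.23% false calls, 99.5% with 7.87% for DOX in 8p, 97.0% with 7.18% for 12q against 1p and 96.0% with 4.48% for DOX in NextSeq. With each gene's own estimated spread the false calls were 7.04%, 16.0%, 8.76% and 34.2%. How much the fits recover in the libraries themselves was not tested. For DOX in NextSeq, XIST had a log2 difference of 3.00 there and did not pass (limma adjusted p = 0.702). In that fit 1 of 11397 genes passed.

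The 10 genes and the other lists were chosen with earlier results of these data known. All 10 are named. Of the other lists, the genes passing in a clone comparison with a log2 difference of at least 1 are named, and the highest gene of each list. The 5 genes nearest to the member with the widest HiSeq range are named. The second HiSeq comparison of 12q with 1p was added after the data were seen. Promoters came from RefSeq. Alternatives were the pseudocount, the filter, scaling, robust eBayes, the baseline and left-out libraries. Figures were drawn with matplotlib 3.10.9.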

Additional observations from a re-analysis of the deposited data

Results flagged for a closer look

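For 4 genes both 8p DOX libraries moved one way and both NextSeq clones the other, and the difference between the clones was not tested since the libraries stand in separate tables. The log2 difference with DOX of MMP14 was 0.95 in 8p, -0.12 in 1p and -0.12 in 12q. That of MMP1 was 0.21 in 8p, -0.13 in 1p and -0.12 in 12q. TIMP1 was at 0.045, -0.20 and -0.17, and BSG at 0.14, -0.10 and -0.24 in the same order.

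For 5 other genes 1p and 12q moved in opposite directions with DOX, with 1 library per condition and no test. MMP9 was at 0.26 in 1p, where it was below 1 FPKM, and -0.51 in 12q. MMP2 was at 0.34 in 1p and -0.24 in 12q, TIMP3 at 0.45 and -0.0098, TIMP2 at 0.081 and -0.00098, and RECK at 0.044 and -0.058. The DOX and No DOX libraries of 1p have different replicate names.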

How the results depend on the processing

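No paired analysis was possible because the labels give matching replicate names to too few of the libraries compared. Without a filter on low values 320 genes passed in 8p against the other clones, 21 with DOX in 8p, 1971 between 12q and 1p, and 0 with DOX in NextSeq (limma), where robust eBayes gave 2. With DOX in 8p, 0 members passed without the filter, and with the other HiSeq libraries in the baseline 2 genes and 0 members passed. With an average of at least 5 FPKM, MMP3, MMP9, TIMP3 and RECK were not tested between 12q and 1p, and 3 of the other members passed. That count is given without the share of all genes and is not read as a result about the members. Leaving out 1 library in turn gave 29 (without 8p DOX 1) to 1737 genes (without 12q) in 8p against the other clones, and 0 to 2 members. The 2 members passed without 1p XIST, where 231 genes passed in all. With a pseudocount of 0.1, 230 genes and 1 member (TIMP3) in 1p and 597 genes in 12q were past 1.5-fold with DOX. The highest MMP to TIMP ratio over the lowest was 2.21 in HiSeq and 1.08 in NextSeq, and 2.01 and 1.23 without MMP1.

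No call reversed. Below the threshold in every setting, the sign turned in 8p against the other clones for MMP14 (-0.067 scaled, -0.066 without 8p DOX 1, -0.14 without the vector library), RECK (-0.15 scaled, -0.095 without 1p XIST), TIMP1 (0.038 without 1p XIST) and MMP3 (-0.33 without the vector library), and over all left-out libraries the values ran from -0.14 to 0.52 for MMP14, -0.095 to 0.27 for RECK, -0.22 to 0.038 for TIMP1 and -0.33 to 0.70 for MMP3. It turned with DOX in 8p for RECK (0.056 scaled, 0.038 with the other baseline), MMP3 (0.10) and TIMP1 (-0.038, both with the other baseline), and in NextSeq for MMP9 (0.037 with a pseudocount of 0.1) and RECK (0.031 scaled). Left-out libraries, with no test, also turned the sign of TIMP2 with DOX in 8p (-0.037 without DOX 1), of TIMP3 (-0.12 without either No DOX library) and BSG (0.049 without either DOX library) between 12q and 1p, and with DOX in NextSeq of MMP2 (-0.24), TIMP2 (-0.00098) and TIMP3 (-0.0098) without a 1p library and of MMP9 (0.26) and RECK (0.044) without a 12q library. MMP1 with DOX in 8p passed after scaling (0.28, limma adjusted p = 0.0484). Where no cause is given, the cause was not tested. Unknown depth limits the values below 1 FPKM most.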

Other observations

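KLK6, a kallikrein on the activator list, was at 47.6 FPKM in the 1p vector library and below 0.4 FPKM in the other 9 libraries. It was singled out after its values were seen. THBS2 was at 0.0608 FPKM in 1p DOX of HiSeq and at 0.0768 and 0.0212 FPKM in the 1p libraries of NextSeq, and at 3.17 to 5.80 FPKM in the other 7 libraries, the 1p vector library included.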
